A study of Hordeum vulgare with 12 samples.

Results

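The genes described here were near 0 in wild-type (WT) barley inflorescences and expressed in those of a mutant, at both stages studied. They were chosen by their own levels. A gene was taken when both of its WT means, of the stages W2.0 and W3.5, were under 0.5 FPKM and both of its mutant means reached 2 FPKM. FPKM is a read count scaled by gene length and library depth. The rule found 48 of 29014 listed genes. The difference between mutant and WT is therefore given as a description, without a test.

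RNA-seq was made from inflorescences of barley (Hordeum vulgare) of the cultivar Golden Promise, grown under conditions described only as normal. The 4 groups were the mutant and wild type, each sampled at stage W2.0 and at stage W3.5, with 3 libraries per group and 15 to 20 pooled spikes behind each biological replicate. The series text names the FASCIATED EAR (FEA) genes and a different second stage. The sources used here name neither the mutated gene nor how the mutant was made, so the targeted gene could not be looked up in the libraries. The prefix F4 in the library names of the mutant has no explanation there. The file holds 1 column per group, which was taken as the authors' mean over 3 libraries.

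The inflorescence meristem is the dividing tip that lays down spikelets in cereals, and its size is held in check by signals that limit the stem cell pool. In maize, fea mutants have enlarged and flattened inflorescence tips, which gave these genes their name. The stage names have the form of the Waddington scale, which orders the development of the barley spike by its apex. Identifiers of the form used here were given to gene models of the barley cultivar Morex, in order along each chromosome. Neither the file nor the reference table pairs them with gene names, so no function is given for any gene below, and inflorescence markers could not be looked up.

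The depth behind the means, recovered from the values, ran from 63298092 to 75896357 reads per library. In each group the letters A, B and C are given from the deepest library to the shallowest, and which replicate of the labels each one is remains unknown. The mutant libraries of W2.0 were less alike than those of the other groups over 4307 genes with recovered values. These genes had a highest group mean under 8 FPKM and at least 1 FPKM in at least 3 libraries. The correlations therefore describe genes of low to middle level and not the whole libraries. The mean correlation between the mutant libraries of W2.0 was 0.680, against 0.782 between those of W3.5. It was 0.761 and 0.840 between the WT libraries of W2.0 and of W3.5. Library A of the mutant at W2.0 correlated at 0.666 with B and C of its own group and at 0.747 with the mutant libraries of W3.5. The same values were not taken for B and C, so A is not shown to differ from them. The rule and the stage test were repeated without this library for the genes with recovered values.

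Most of the 48 genes were at a low level in the mutant, and a few were abundant. HORVU4Hr1G050060 was the most abundant, with authors' means of 102 FPKM at W2.0 and 119.9 FPKM at W3.5 in the mutant. In WT it stood at 0.145 and 0.0429 FPKM. Levels in the mutant were far lower for the next genes in rank. HORVU7Hr1G103710 had mutant means of 27.2 and 31.3 FPKM and WT means of 0.0889 and 0 FPKM, with W2.0 given first here and below. HORVU7Hr1G056780 had mutant means of 23.3 and 25.9 FPKM, against WT means of 0.0585 and 0.0324 FPKM. HORVU1Hr1G084310 was at 23.3 and 24.2 FPKM in the mutant and at 0.219 and 0.283 FPKM in WT. These were the only members whose lower mutant mean passed 20 FPKM.

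Of the remaining members, 2 had a lower mutant mean between 8 and 20 FPKM, 13 between 4 and 8 FPKM, and 29 between 2 and 4 FPKM. HORVU2Hr1G108750 fell in the upper of these classes, with mutant means of 18.8 and 15.0 FPKM and WT means of 0.0465 and 0 FPKM. HORVU0Hr1G038770, on no placed chromosome, was the other, at 14.7 and 13.6 FPKM in the mutant and at 0.0674 and 0.0325 FPKM in WT. The 4 that complete the first 10 in rank were HORVU6Hr1G043740, HORVU6Hr1G053350, HORVU5Hr1G108870 and HORVU6Hr1G053370. Their mutant means lay between 6.24 and 12.2 FPKM. The median of the mutant means, averaged over both stages, was 3.93 FPKM for the 48 genes. It was 10.7 FPKM for the 19367 genes of at least 1 FPKM in a group, and 6 of the 48 lay above that value.

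**Figure D1:**
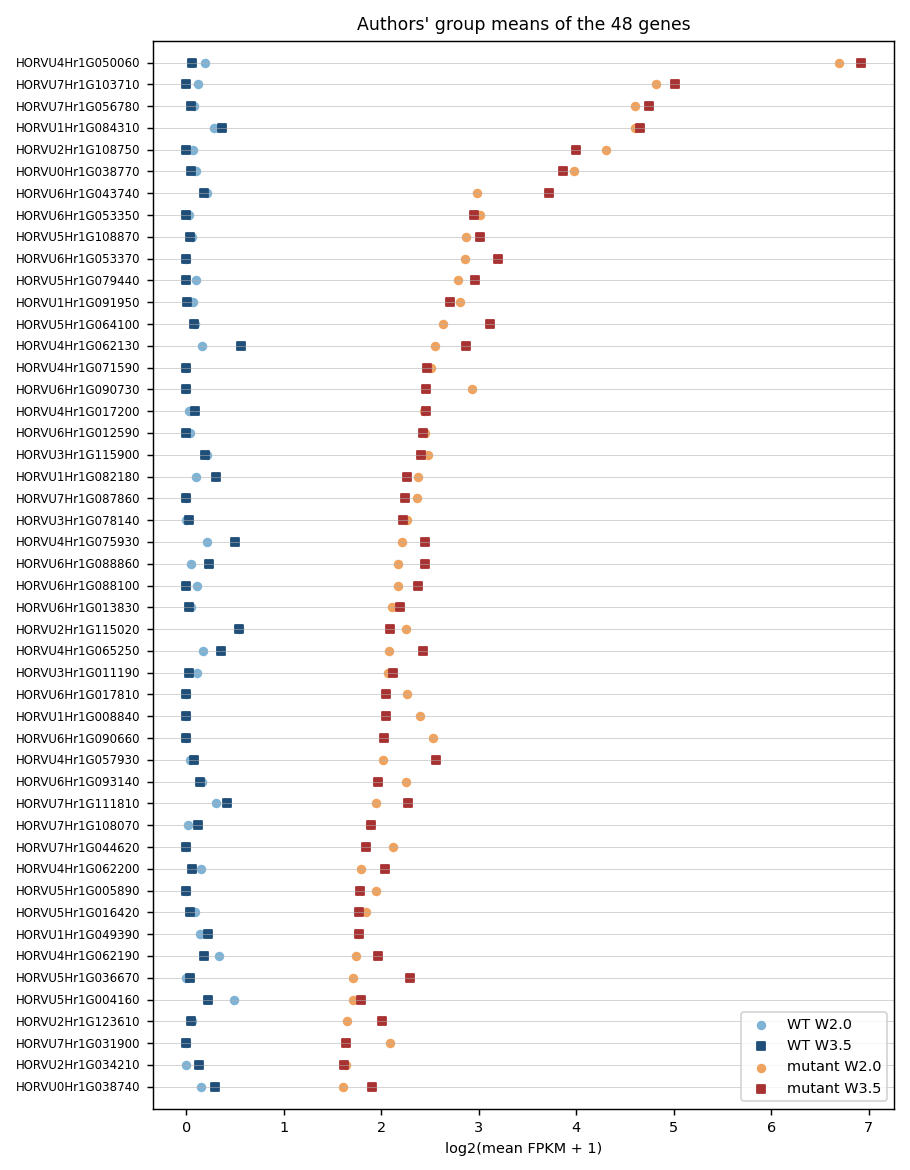
Authors' group means of the 48 genes, with log2(mean FPKM + 1) on the horizontal axis and genes ordered by their lower mutant mean. Circles are W2.0 and squares W3.5, blue for WT and orange to red for the mutant; HORVU4Hr1G050060 stands apart at 102 and 119.9 FPKM.

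In WT the 48 genes were not uniformly silent. Both WT means were above 0 for 29 genes, 1 of the 2 means was listed at 0 for 9 genes, and both were listed at 0 for 10 genes. The genes at 0 in both were HORVU1Hr1G008840, HORVU4Hr1G071590, HORVU5Hr1G005890, HORVU6Hr1G017810, HORVU6Hr1G053370, HORVU6Hr1G090660, HORVU6Hr1G090730, HORVU7Hr1G031900, HORVU7Hr1G044620 and HORVU7Hr1G087860. Their mutant means lay between 2.12 and 8.18 FPKM. At the recovered depths, 3 reads over the 6 WT libraries correspond to 0.00714 FPKM for a transcript of 1000 bases, a limit that covers counting error only. In 31 of the 48 genes both WT means were under 0.1 FPKM. In such bulk samples, fewer cells that express a gene and less RNA per cell cannot be told apart.

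Against a share of 0.775% of the 19367 genes, all 48 genes exceeded WT by 2-fold or more at both stages on the log2(FPKM + 1) scale, which the rule itself brings about. Their median difference was 2.26 for W2.0 and 2.20 for W3.5, against 0.02 and -0.05 over the 19367 genes. This scale understates the differences of low genes. With a pseudocount of 0.1 in place of 1, the medians of the 48 genes were 4.84 and 4.97.

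Genes just inside and just outside the rule had similar values. Just inside the WT threshold were HORVU4Hr1G062130, with a highest WT mean of 0.475 FPKM, HORVU2Hr1G115020 with 0.452 FPKM and HORVU4Hr1G075930 with 0.411 FPKM. Just outside it were HORVU2Hr1G077360 with 0.611 FPKM, HORVU4Hr1G062140 with 0.658 FPKM and HORVU1Hr1G045010 with 0.698 FPKM, all with mutant means of 2.55 FPKM or more. The lowest mutant means of members were 2.04 FPKM in HORVU0Hr1G038740, 2.06 FPKM in HORVU2Hr1G034210 and 2.12 FPKM in HORVU7Hr1G031900. HORVU2Hr1G077350, HORVU2Hr1G027560 and HORVU7Hr1G075760 lay just under that threshold, with lower mutant means of 1.99, 1.88 and 1.83 FPKM. HORVU2Hr1G077350 and HORVU2Hr1G077360 are neighbours in identifier order, and each missed the rule by 1 of its values.

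Values of single libraries could be recovered for 22 of the 48 genes, because a mean of 3 FPKM values is a weighted sum of 3 whole numbers of reads. The 8 most abundant members and the 10 listed at 0 in both WT means were not among the 22, so the library values describe members of low to middle level.

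HORVU5Hr1G064100 was at 7.29, 3.53 and 4.78 FPKM in the mutant libraries A, B and C of W2.0, and at 7.47, 8.05 and 7.55 FPKM in those of W3.5. Its WT libraries were at 0.0465, 0.0960 and 0.0399 FPKM at W2.0 and at 0.0627, 0.0633 and 0.0395 FPKM at W3.5. Every mutant library was above every WT library, and the libraries of W3.5 were closer to each other than those of W2.0. HORVU5Hr1G079440 had mutant values of 8.16, 5.30 and 4.29 FPKM for W2.0 and of 7.37, 8.52 and 4.38 FPKM for W3.5. Library C, the shallowest, was lowest at both stages, but the letters do not pair libraries between stages. In WT only library B of W2.0 held reads of this gene, 12 in all (0.212 FPKM).

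HORVU5Hr1G108870 varied more. Its mutant libraries were at 5.56, 1.91 and 11.4 FPKM at W2.0 and at 5.04, 10.6 and 5.58 FPKM at W3.5, so that the ranges of both stages overlapped. The mean was 6.29 ± 4.78 FPKM (SD, n = 3) at W2.0 and 7.08 ± 3.07 FPKM (SD, n = 3) at W3.5. Its WT libraries were at 0.0509, 0.0656 and 0 FPKM at W2.0, and at W3.5 only B held reads (0.0831 FPKM). HORVU6Hr1G088100, singled out after its values were seen, had the same order of libraries, with 3.00, 1.49 and 5.97 FPKM at W2.0 and 3.37, 5.83 and 3.33 FPKM at W3.5 for A, B and C, except that A and C changed places at W3.5. The ratio of HORVU5Hr1G108870 to HORVU6Hr1G088100 stayed between 1.29 and 1.91 over the 6 mutant libraries.

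HORVU4Hr1G017200 was steadier, with mutant libraries of 4.32, 3.76 and 5.20 FPKM for W2.0 and of 3.64, 5.80 and 4.05 FPKM for W3.5. In WT it had reads in library A of W2.0 (0.0552 FPKM) and in libraries A and B of W3.5 (0.0596 and 0.120 FPKM), with at most 8 reads in each. HORVU6Hr1G012590 had 3.30, 6.08 and 3.94 FPKM in the W2.0 libraries of the mutant and 5.17, 3.65 and 4.32 FPKM in the W3.5 libraries. Of its 6 WT libraries only C of W2.0 held reads, 9 in number (0.0745 FPKM).

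In 21 of the 22 genes the lowest mutant library was above the highest WT library. The count was not made over other genes, so no share stands beside it. Because the rule used the means of the same libraries, it is a description and supports nothing. The exception was HORVU0Hr1G038740. It was at 2.79 and 3.17 FPKM in libraries A and B of the mutant at W2.0, with 268 and 298 reads, but at 0.166 FPKM with 14 reads in library C. Of its WT libraries 3 lay above that value, C of W2.0 at 0.228 FPKM with 19 reads and A and B of W3.5 at 0.237 and 0.331 FPKM. At W3.5 its mutant libraries were at 2.33, 2.49 and 3.44 FPKM. The highest WT library of the 22 genes was C of W3.5 in HORVU4Hr1G075930, at 0.772 FPKM and 98 reads, while A and B of that group held 31 and 30 reads.

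**Figure D2:**
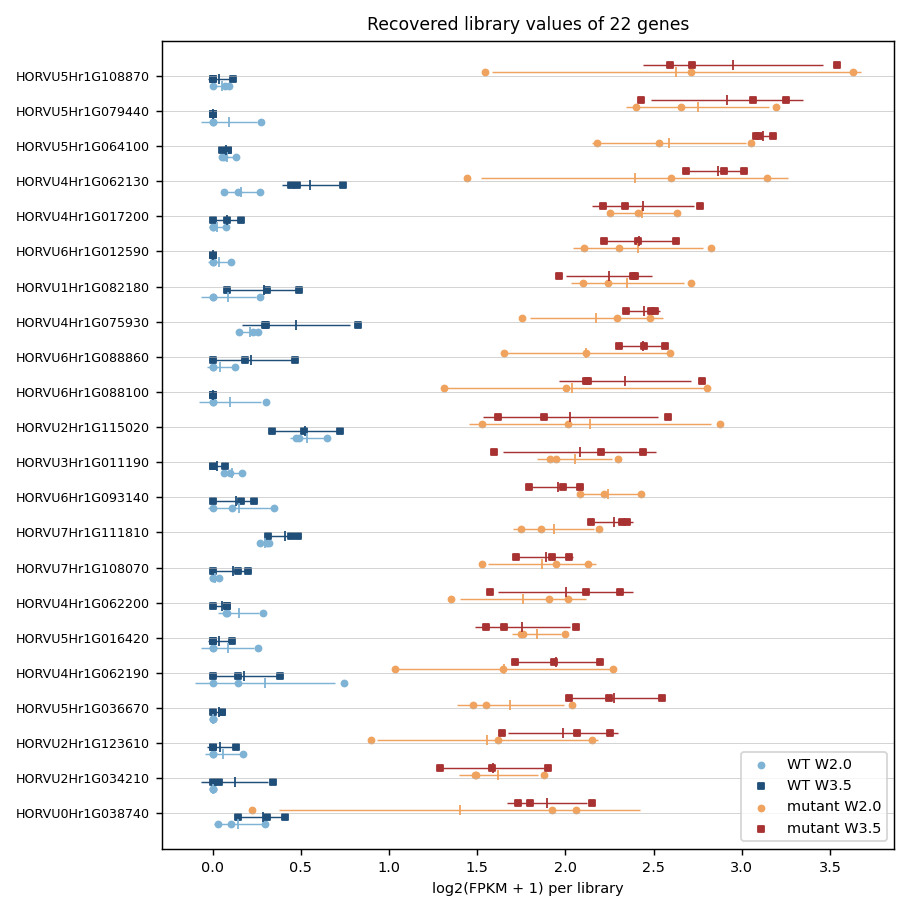
Recovered library values of 22 of the 48 genes, with log2(FPKM + 1) per library on the horizontal axis. Each point is 1 library, and the small upright mark and its line are the mean and SD of 3 libraries on this scale; in HORVU0Hr1G038740, 1 mutant library of W2.0 at 0.166 FPKM lies among the WT values.

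Spread between mutant libraries was wide. The coefficient of variation over 3 libraries had a median of 32.5% at W2.0 and 22.9% at W3.5 over the 22 genes. Over 1733 other recovered genes with mutant means between 2 and 8 FPKM it was 22.7% and 17.6%. At W2.0, 9 of the 22 genes had a highest library more than 2 times the lowest, and 4 did at W3.5, beside 25.2% and 13.1% of the other genes. Library B was the lowest of the mutant at W2.0 for 11 of the 22 genes, C for 8 and A for 3. Recovery was more frequent at low levels, so these genes do not stand for all 48.

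Each of the 22 genes was held against the rule again with 1 library left out. Without library A of the mutant at W2.0, 19 of the 22 still met it, and 19 was the lowest count over the 12 libraries left out in turn. The 22 had been chosen with all 12 libraries, and genes outside the rule were not held against it again. The count could therefore only fall, and it is a description.

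No single WT library held most of the WT reads of the 22 genes. At W2.0, libraries A, B and C held 163, 167 and 128 reads of these genes, which is 35.6%, 36.5% and 27.9% of the reads against 35.2%, 34.1% and 30.7% of the depth. At W3.5 they held 193, 246 and 258 reads, or 27.7%, 35.3% and 37.0% against 34.0%, 33.7% and 32.4% of the depth. Of the reads of 8212 other recovered genes under 0.5 FPKM in both WT means, A, B and C held 29.6%, 40.6% and 29.8% at W2.0. At W3.5 they held 30.1%, 37.6% and 32.3% of those reads. Among the 22 genes, a single library held all the WT reads of a stage for 9 of the 20 with a read at W2.0. It did so for 4 of the 19 at W3.5, and these counts were not made over other genes. Each of the 22 genes had a read in at least 1 WT library. This was fixed beforehand, since none of the genes listed at 0 in both WT means was among the 22.

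The stage comparison within the mutant asked whether these genes moved from W2.0 to W3.5. The rule did not use this difference, although it required 2 FPKM at both stages and so kept out genes that fell below that level at either. By the authors' means, 27 of the 48 genes were higher at W3.5 and 21 lower, and 46.7% of the 19367 genes were higher. The ratio of W3.5 to W2.0 had a median of 1.03 and ran from 0.647 to 1.76. Beside a share of 9.12% of the 15980 genes of at least 2 FPKM in both mutant means, 5 of the 48 (10.4%) differed by more than 1.5-fold between the stages.

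The 3 genes with the highest ratio were HORVU6Hr1G043740, HORVU5Hr1G036670 and HORVU4Hr1G057930. HORVU6Hr1G043740 went from a mean of 6.92 to 12.2 FPKM, and HORVU4Hr1G057930 from 3.05 to 4.89 FPKM. HORVU5Hr1G036670 was at 3.11, 1.93 and 1.79 FPKM in the mutant libraries of W2.0 and at 3.06, 4.85 and 3.75 FPKM in those of W3.5, so the highest library of W2.0 overlapped the lowest of W3.5. The lowest ratios were those of HORVU6Hr1G090660 (4.76 to 3.08 FPKM), HORVU7Hr1G031900 (3.24 to 2.12 FPKM) and HORVU6Hr1G090730 (6.63 to 4.51 FPKM). All 3 were listed at 0 in both WT means.

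Of the 10 genes at 0 in both WT means, 9 were lower at W3.5 than at W2.0 in the mutant, with a median ratio of 0.801. The exception was HORVU6Hr1G053370, at 6.24 and 8.18 FPKM. Of the other 38 genes 12 were lower and 26 higher, with a median ratio of 1.10. This split was looked at after the values were seen, rests on means without library values for the 10 genes, and was not tested.

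**Figure D3:**
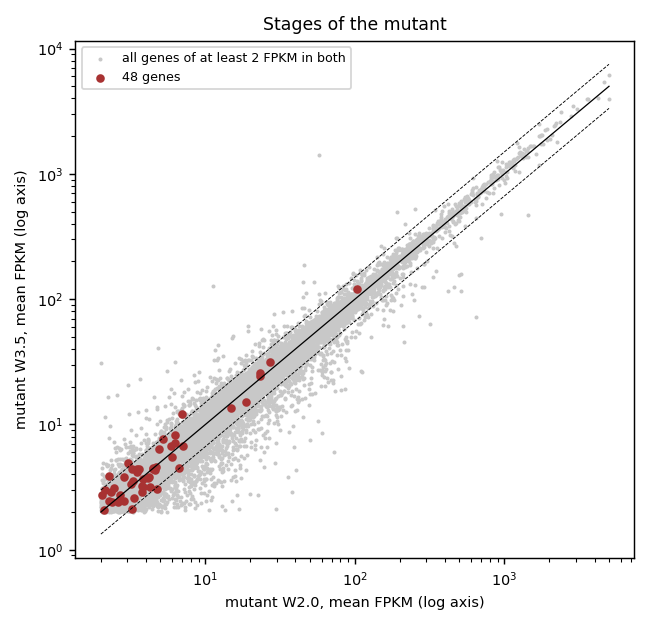
Authors' means of the mutant at W2.0 and at W3.5, in FPKM on log axes, for the 48 genes (red) and all genes of at least 2 FPKM in both (grey). The solid line marks equal means and the dashed lines 1.5-fold; 5 of the 48 genes lie outside the dashed lines.

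The 22 genes with library values were tested for a stage difference in the mutant with limma, in 1 model of all 12 libraries over 4307 genes. Beside a share of 0.0232% (1 gene of 4307), none of the 22 passed a Benjamini-Hochberg adjusted p under 0.05. An unadjusted p under 0.05 was reached by 2 of the 22 and by 399 of the 4307 genes. HORVU5Hr1G036670 had a difference of 0.59 ± 0.20 (SE) on the log2(FPKM + 1) scale, with a limma adjusted p of 0.401. HORVU5Hr1G064100 had 0.53 ± 0.20 (SE; limma adjusted p = 0.433). The error of this model also holds the WT libraries, which the rule kept near 0, and none of the 22 had 1 FPKM in a WT library. With the 6 mutant libraries alone the SE was larger for all 22, at 0.24 in HORVU5Hr1G036670 and 0.21 in HORVU5Hr1G064100. In that fit 2 of the 22 and 315 of the 4307 genes reached an unadjusted p under 0.05, no gene passed, and the lowest limma adjusted p of the 22 was 0.630. The median over the 22 in the model of all libraries was 0.26, against -0.04 over all genes tested. Over all 48 genes the median stage difference by the authors' means was only 0.035. The 22 leave out the 10 genes at 0 in both WT means, of which 9 were lower at W3.5 and 1 higher. The model averages log values of libraries, while the authors averaged before the log, so these medians are not the same measure. The value of 0.26 therefore does not describe the 48 genes. With limma-voom none of the 4307 genes passed, and 3 of the 22 and 375 of the 4307 reached an unadjusted p under 0.05. With library A of the mutant at W2.0 left out of the limma test, 5 of the 22 and 638 of the 4307 genes reached an unadjusted p under 0.05, 6 genes and none of the 22 passed, and the lowest limma adjusted p of the 22 was 0.0950. Over the 17 other settings of the test that value ran from 0.0950 to 0.690. A p that misses the threshold does not show that the stages were alike. With at most 6 of all genes tested passing in any setting, 0 of the 22 says little about these genes.

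The 48 genes were spread over all 7 chromosomes and the unplaced set (0H). Chromosome 6H held 11 of them (22.9%), against 11.2% of the 19367 genes of at least 1 FPKM, and 4H held 9 (18.8%), against 11.9%. 2H and 3H held 4 and 3, which is 8.33% and 6.25% against 16.3% and 14.7% of those genes. 5H and 7H held 7 each, 1H held 5 and the unplaced set 2. The shares were described and not tested.

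**Figure D4:**
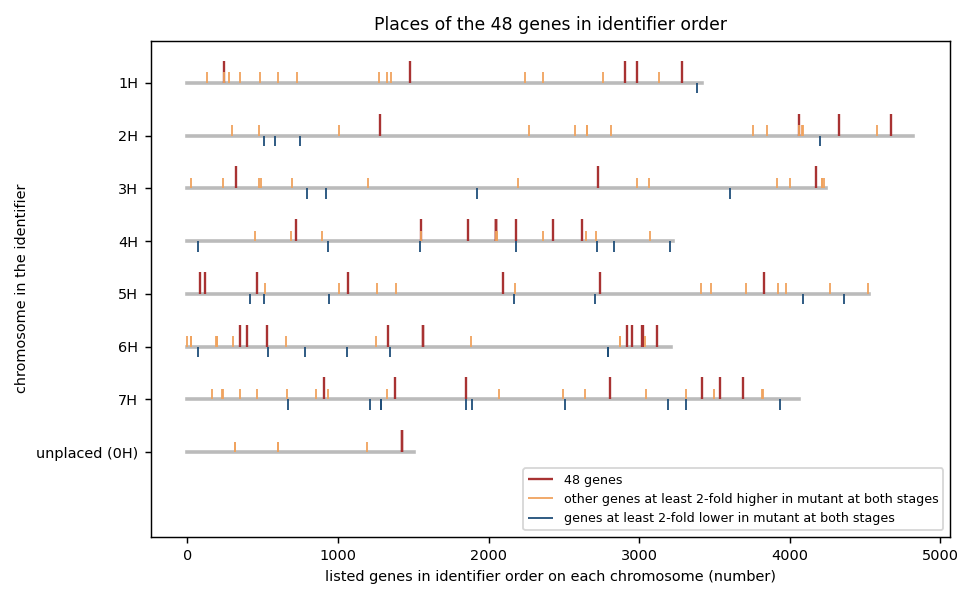
Places of the 48 genes (tall red ticks) in identifier order on each chromosome, with the number of listed genes on the horizontal axis. Short orange ticks are other genes at least 2-fold higher in the mutant at both stages and blue ticks below the line are genes at least 2-fold lower; 6H holds 11 of the 48.

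In identifier order, 39 of the 48 genes had no other of the 48 within 10 listed genes, and 9 had one. The 48 are few among 29014 listed genes. The count was not made for other sets of 48 genes, so it does not show whether they were scattered or close. Between successive members on a chromosome the median distance was 280 listed genes. Close members formed 4 groups that hold the other 9 genes. HORVU4Hr1G062130, HORVU4Hr1G062190 and HORVU4Hr1G062200 lay within 3 steps of each other. HORVU6Hr1G053350 and HORVU6Hr1G053370 were next to each other, HORVU6Hr1G090660 and HORVU6Hr1G090730 were 4 steps apart, and HORVU0Hr1G038740 and HORVU0Hr1G038770 were 2 steps apart.

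The close members on 4H had the same order of mutant libraries at W2.0. HORVU4Hr1G062130 was at 7.82, 1.72 and 5.05 FPKM in libraries A, B and C, HORVU4Hr1G062190 at 3.83 FPKM in A, 2.13 FPKM in C and 11 reads in B, and HORVU4Hr1G062200 at 3.05, 1.56 and 2.76 FPKM. In all 3 genes A was highest and B lowest. This order was not particular to them. Over the 22 genes, A was the highest at W2.0 for 11 and B the lowest for 11. HORVU5Hr1G064100 and HORVU7Hr1G111810, on other chromosomes, also had A highest and B lowest. At W3.5 the order differed among the 3 close members, with B highest in HORVU4Hr1G062130 and C in the other 2. In WT, HORVU4Hr1G062130 was at 0.205, 0.0471 and 0.104 FPKM at W2.0 and at 0.394, 0.671 and 0.362 FPKM at W3.5. The highest WT library of HORVU4Hr1G062190 was B of W2.0, at 0.679 FPKM from 7 reads.

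The pair on 6H at HORVU6Hr1G053350 and HORVU6Hr1G053370 had mutant means of 7.09 and 6.24 FPKM at W2.0 and of 6.72 and 8.18 FPKM at W3.5. In WT, HORVU6Hr1G053350 was listed at 0.0159 FPKM at W2.0 and at 0 at W3.5. The other pair on 6H was at 0 in WT and lower at W3.5, as given above. The partners on 0H were far apart in level, with 14.7 and 13.6 FPKM in HORVU0Hr1G038770 and 2.04 and 2.75 FPKM in HORVU0Hr1G038740.

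Wider groupings on 4H and 6H were chosen after the positions were seen. From HORVU6Hr1G088100 to HORVU6Hr1G093140, 198 listed genes held 5 of the 48. Of the 138 other genes there of at least 1 FPKM, 1 was at least 2-fold different between mutant and WT at both stages. From HORVU6Hr1G012590 to HORVU6Hr1G017810, 178 listed genes held 3 of the 48, and none of the 117 others differed in that way. From HORVU4Hr1G057930 to HORVU4Hr1G065250, 317 listed genes held 5 of the 48, and 2 of the 222 others differed.

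Listed neighbours of the 48 genes differed little between mutant and WT in the median. Within 5 listed genes on each side there were 306 other genes of at least 1 FPKM. Their median difference between mutant and WT was 0.01 for W2.0 and -0.08 for W3.5 on the log2(FPKM + 1) scale, against 0.02 and -0.05 over the 19319 genes outside the 48. Beside a share of 0.986% over all 19367 genes, the 48 included, 6 of the 306 neighbours were at least 2-fold different at both stages. All 6 lay directly beside a member, where 71 neighbours stood, and none were among the 235 that stood 2 to 5 steps away. Over the 19319 genes outside the 48 that share was 0.740%.

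Of these 6 neighbours 4 were higher in the mutant. HORVU1Hr1G008830, beside HORVU1Hr1G008840, was also listed at 0 in both WT means and stood at 2.32 and 1.56 FPKM in the mutant, under the rule's threshold at W3.5. HORVU2Hr1G108760, beside HORVU2Hr1G108750, had mutant means of 1.10 and 17.4 FPKM, the second at W3.5, with WT means of 0.00224 and 0 FPKM. HORVU2Hr1G108750 itself was at 18.8 and 15.0 FPKM. HORVU4Hr1G050080, beside the most abundant member, was expressed in WT at 4.13 and 4.68 FPKM and higher in the mutant at 10.6 and 14.3 FPKM.

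HORVU4Hr1G062140 lies between HORVU4Hr1G062130 and HORVU4Hr1G062190. Its mutant libraries A, B and C were at 4.92, 0.619 and 2.85 FPKM at W2.0 and at 3.87, 2.01 and 4.09 FPKM at W3.5. The order at W2.0 was that of its neighbours, and also that of HORVU5Hr1G064100 on another chromosome. The WT libraries of HORVU4Hr1G062140 ran from 0.166 to 0.959 FPKM. The highest WT library was above library B of the mutant at W2.0, so the ranges of mutant and WT overlapped in this gene.

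The other 2 neighbours were lower in the mutant, opposite to the members beside them. HORVU4Hr1G065270 had 5.05, 7.22 and 5.64 FPKM in WT libraries A, B and C of W2.0 and 0.433, 0.1002 and 0.112 FPKM in those of the mutant. At W3.5 it was at 7.19, 6.73 and 4.12 FPKM in WT and at 0.367, 0.313 and 0.372 FPKM in the mutant. Its neighbour HORVU4Hr1G065250, a member, had authors' means of 0.122 and 0.281 FPKM in WT and of 3.21 and 4.40 FPKM in the mutant. HORVU7Hr1G056770 had means of 47.0 and 46.8 FPKM in WT and of 16.4 and 5.19 FPKM in the mutant. Beside it, the member HORVU7Hr1G056780 had WT means of 0.0585 and 0.0324 FPKM and mutant means of 23.3 and 25.9 FPKM. The library kit does not mark strand, and how reads over overlapping or similar genes were assigned is not given in the sources used here. Whether neighbours shared reads was not tested.

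**Figure D5:**
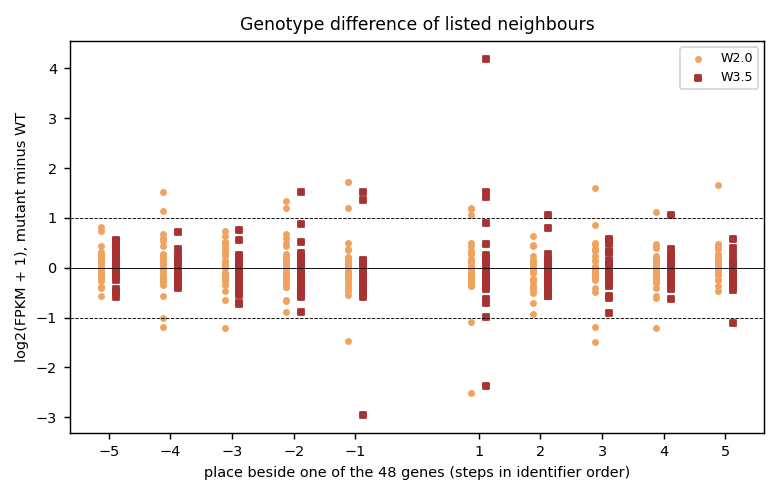
Difference between mutant and WT in log2(FPKM + 1), by the authors' means, for genes of at least 1 FPKM within 5 steps of the 48 genes in identifier order. Circles are W2.0, squares W3.5, and dashed lines mark 2-fold. The 6 genes past 2-fold at both stages stand 1 step from their nearest member. A gene near more than 1 of the 48 is drawn once for each, so HORVU4Hr1G062140 also appears farther out.

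Gene length, which the rule did not use, was recovered along with the reads. The simulation of the recovery compared reads over length, so length and read number were not checked apart. Recovered length had a median of 977 bases over the 22 genes, from 141 in HORVU4Hr1G062190 to 1905 in HORVU4Hr1G075930. The median was 1040 bases for the 1733 other recovered genes of 2 to 8 FPKM in both mutant means. Reads were few for the shortest genes. HORVU4Hr1G062190 had 11 to 41 reads per mutant library and up to 7 per WT library, and HORVU4Hr1G062200, of 251 bases, had 29 to 63 and up to 4.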

How the data were processed

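The deposited table gave 4 columns of FPKM, 1 per group, which the authors had averaged over 3 libraries as far as the column names and values show; no header or label states the unit. The tools listed per the submitters' processing notes are FastQC, HISAT2 2.0.0 and HTSeq 0.11.2. Build, annotation and the handling of shared reads were not given in the sources used here. Per the labels' protocols, libraries were made with version 2 of the TruSeq RNA kit.

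Depths of the 12 libraries were solved from 7899 ratios of low values, at the scale where all 12 came out whole (largest distance 0.037). Whole reads and a whole length (100 to 8000 bases) were then searched for the 48 genes and every gene with a highest mean under 8 FPKM, and 1 solution was accepted above a probability of 0.99. Of 16922 genes, 13679 were recovered: 93.8% at a highest mean of 0.5 to 2 FPKM and 37.9% at 4 to 8 FPKM. On members simulated from the means and lengths of the 22 recovered ones, 215 of 266 were recovered, all 215 with the right values. Values were compared as reads over length. The 26 members without recovered values were not simulated, so this does not describe them. With columns shuffled against each other, 6 of 600 genes were recovered, against 506 unshuffled.

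limma 3.58.1 (R 4.3.3; python 3.11.15, numpy 2.4.6, numba 0.67.0) was run on log2(FPKM + 1) for genes of at least 1 FPKM in at least 3 libraries. The limma step was tested on simulated reads. The quasi-likelihood test planned for deposited counts was not used, since the table holds FPKM. limma-voom on recovered reads was run as an alternative. The p-values measure the spread between these libraries, for which the labels give no separate plants beyond the word biological.

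Members and lists were chosen with earlier results of these data known. Genes named are the first 10 by lower mutant mean, members within 10 listed genes of another, the 3 highest and lowest stage ratios, 3 genes on each side of each threshold, members at 0 in WT, the 6 highest with recovered libraries, and neighbours 2-fold different at both stages. Others are said to be chosen after their values were seen.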

Additional observations from a re-analysis of the deposited data

How the results depend on the processing

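The number of genes depended on the mutant threshold, with 79 at 1 FPKM and 19 at 4 FPKM in place of 48 at 2 FPKM, and less on the WT threshold, with 38 at 0.2 FPKM and 61 at 1 FPKM. The median difference between mutant and WT moved to 4.84 for W2.0 and 4.97 for W3.5 with a pseudocount of 0.1, since WT values near 0 weigh more there. The neighbours' median at W2.0 moved from 0.01 to -0.07 with 1 gene on each side. The median stage difference stayed between 0.04 and 0.09. The share of background genes on 6H was 11.1% over all listed genes. Over the 12 libraries left out in turn, 19 to 22 of 22 recovered genes met the rule, an alternative chosen after seeing the data. That count started from genes chosen with all 12 libraries and could only fall. In limma 0 of the 22 passed the stage test in any of its 17 other settings, where at most 6 of all genes tested passed. No paired analysis was possible because the deposited columns are group means and carry no replicate numbers, and a replicate block was not run. No member with a mean above 8 FPKM has library values, so the error is unknown for the most abundant members.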
